A study of Mus musculus with 14 samples.

Results

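TRAIL is a ligand of death receptors that Tnfsf10 encodes. Its addition to stimulated cultures labelled as CD4 T cells was read from 6 culture libraries. Of these, 3 were from cells given antibodies to CD3 and CD28 together with TRAIL, and 3 from cells given the same antibodies without TRAIL. Another 2 libraries came from cells kept in medium with neither, and the series holds 14 libraries in all, of which 8 are from culture. By their labels, all culture groups used primary CD4 T cells of wild type C57BL/6 mice, taken from lymph node and kept in RPMI. The dose on the labels is 10 ug/ml for TRAIL. For the antibodies it is 1 mg/ml. The time in culture is not given in the sources used here. No label says whether replicates were separate cultures or animals, so each p-value measures the spread between these libraries, which may be technical. The genes were those with a mean of at least 1 TPM (transcripts per 1 M transcripts, a level per gene length and per library) over the 8 culture libraries, which were 14035 of the 20875 genes listed.

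TRAIL binds receptors of the tumour necrosis factor family, of which the mouse has 1 with a death domain, encoded by Tnfrsf10b. Through FADD and caspase-8 this receptor can start apoptosis, and through RIPK1 it can feed NF-kB. Antibodies to CD3 and CD28 stand in for antigen and costimulation. They take a naive T cell out of quiescence: it loses factors such as KLF2 and IL-7 receptor, makes cytokines, and turns up MYC, glycolysis, amino acid supply, ribosome building and DNA replication. Interferons act through JAK kinases and factors of the STAT and IRF families on a further set of genes, many with antiviral roles. The comparison addresses how gene expression differs with and without TRAIL in antibody-treated cultures labelled as CD4 T cells, in which markers of other cells were also present.

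The 6 libraries held 23.03 to 32.29 M reads, as recovered from TPM and gene length, and a gene of median length at 1 TPM stood for 20.4 to 35.6 reads. Replicate 1 of the antibodies alone stood apart from replicates 2 and 3. In 423 and 380 genes it differed from them by more than 1 on the log2 scale, against 113 genes between replicates 2 and 3, and 134 to 142 between libraries with TRAIL. Its long genes were lower and its short genes higher. Over 5 equal bins of protein-coding genes by length, short to long, the median difference of replicate 1 from replicate 2 was 0.161, -0.0081, -0.13, -0.26 and -0.48, while that of replicate 3 from replicate 2 stayed between -0.042 and 0.0040. Gene length moved with the groups too: the median log2 fold change with TRAIL over the antibodies alone was -0.17, 0.047, 0.21, 0.35 and 0.58 from the shortest to the longest bin, and -0.13, 0.048, 0.16, 0.27 and 0.41 without replicate 1. The part of gene length in the results was not tested. Counts of rises and falls per list are given beside those without replicate 1, which were the same wherever none is given, and beside those of a fit with the trend on length removed where it moves a count by more than 1.

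**Figure D1:**
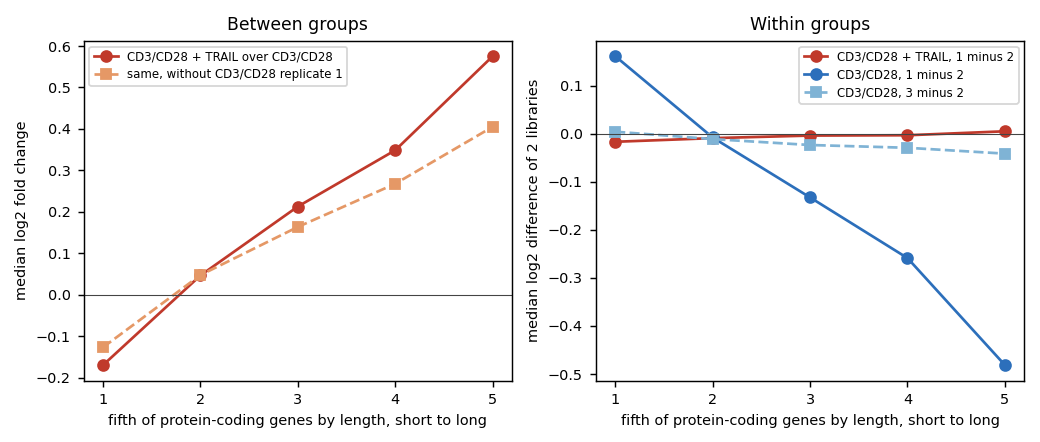
Median log2 differences (vertical axes) over 5 equal bins of protein-coding genes by length (horizontal axes). Left, CD3/CD28 with TRAIL over CD3/CD28 alone, with and without replicate 1 of CD3/CD28 alone, both climbing with length to 0.58 and 0.41. Right, differences between libraries of 1 group, where replicate 1 minus replicate 2 of the antibodies alone runs down to -0.48.

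Markers of CD4 T cells were high in every library, with a summed level over 9 genes of 3266 to 3315 TPM with TRAIL, against 2981 to 3472 TPM with the antibodies alone and 4085 to 4096 TPM in medium. Cd4 itself had 587, 596 and 585 TPM with TRAIL, against 259, 359 and 360.0 TPM with the antibodies alone and 689 and 676 TPM in medium. Markers of other cells were also present. All 12 B cell markers passed the test upwards, with a summed level of 4534 to 4574 TPM with TRAIL, against 1084 to 1151 TPM with the antibodies alone and 4885 to 4893 TPM in medium, so that with TRAIL and in medium the B cell sum was above the CD4 T cell sum. These sums cover different genes, 12 against 9, and do not give numbers of cells. All 13 tested macrophage and monocyte markers passed upwards too, at 398 to 479 TPM with TRAIL, against 41.3 to 46.6 TPM with the antibodies alone and 1204 to 1297 TPM in medium, as did 10 of 10 tested neutrophil markers (9 without replicate 1) at 206 to 232 TPM with TRAIL, against 33.8 to 48.6 TPM with the antibodies alone and 298 to 328 TPM in medium. CD8 T and NK cell markers summed to 204 to 211 TPM with TRAIL, against 315 to 376 TPM with the antibodies alone and 239 to 274 TPM in medium. Gzma, a granzyme that activated T cells also make, carried that difference: without it the other 9 markers summed to 188 to 192 TPM with TRAIL, against 143 to 149 TPM with the antibodies alone. The regulatory T cell list, which includes Il2ra and Tnfrsf18 of activated cells, was at 645 to 661 TPM with TRAIL, against 1827 to 2068 TPM with the antibodies alone and 508 to 525 TPM in medium. Of the tested members, 4 rose and 1 fell among 10 CD8 T and NK cell markers, 4 and 3 among 7 regulatory T cell markers, 4 and 2 among 6 plasma cell markers, and 4 and 2 among 6 dendritic cell markers (3 and 2 without replicate 1, 2 and 2 with the length trend removed). Of 6 mast cell and basophil markers 5 rose and 1 fell, and all 7 erythroid and platelet and all 3 stromal and endothelial markers tested rose. Among the 9 CD4 T cell markers 3 rose and 3 fell (6 and 3 without replicate 1, 5 and 3 with the length trend removed). In none of the marker lists was a listed gene at 0 in every library. In bulk libraries, fewer cells of a type and less RNA per cell cannot be told apart, and the part of other cells in the results below was not tested.

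**Figure D2:**
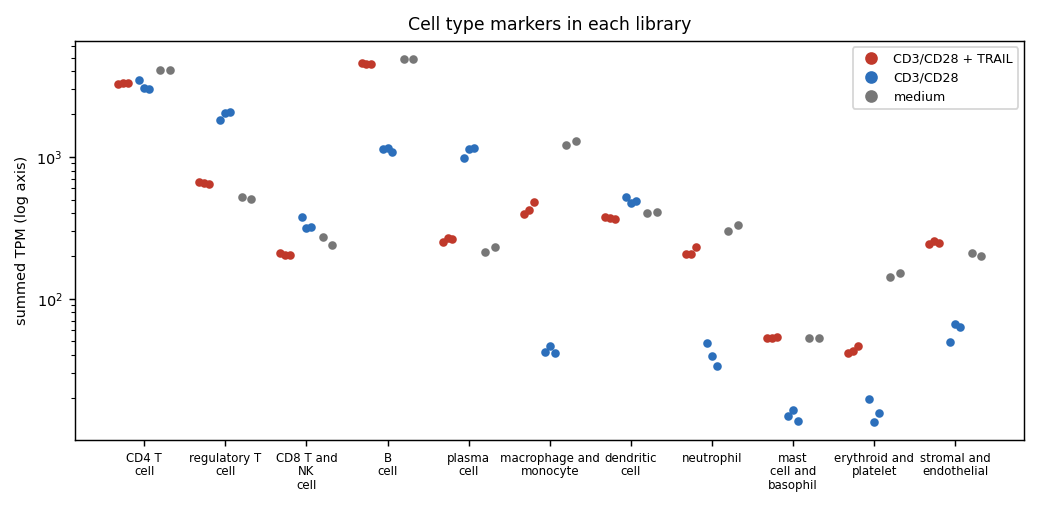
Summed TPM (vertical axis, log scale) of 11 lists of cell type markers in each library; each point is 1 library. B cell, macrophage and neutrophil markers lie well above the antibodies alone with TRAIL, while CD4 T cell markers lie between 2981 and 3472 TPM in all 6 libraries.

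With TRAIL added, most tested interferon-stimulated genes and genes of quiescent T cells rose, and most of those for cytokines, amino acid and glucose metabolism, ribosome building and DNA replication fell. Most genes moved by an amount beyond the spread between libraries: 76.7% of the 14035 genes passed the test (limma, adjusted p under 0.05), 6746 upwards (48.1%) and 4019 downwards (28.6%). A log2 fold change of at least 1, a doubling, was passed by 3049 genes upwards (21.7%) and 1230 downwards (8.76%). Of these, 708 rose and 172 fell by 2 to 4 on the log2 scale, and 31 rose and 12 fell by 4 or more. Without replicate 1 of the antibodies 6902 genes rose and 4439 fell. The libraries of the groups did not overlap in 80.5% of genes, with those given TRAIL above in 50.6% and below in 29.9%. The median over all tested genes was 0.25. TPM is a share of the library, and a scaling by median of ratios put that median at 0.018, with 5441 genes higher and 5352 lower, so the medians of the gene lists below are to be read against 0.25. With the trend on gene length removed, 5395 genes (38.4%) rose and 5576 (39.7%) fell. Counts of rises and falls per list, above and below, are to be read against the shares over all tested genes.

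Among genes at 20 TPM or more in the higher group, the highest changes included members of interferon-inducible families. Ifit1bl1, of the IFIT family, had 269, 283 and 278 TPM with TRAIL, against 2.77, 3.76 and 2.498 TPM with the antibodies alone and 114 and 112 TPM in medium (log2 fold change 6.12 ± 0.11 (SE), adjusted p = 1.84e-08). Ifi213, a member of the family of interferon-inducible proteins with a pyrin domain, at chr1:173566283-173599274 (GRCm38.p6), had 839, 856 and 858 TPM with TRAIL, against 16.7, 33.6 and 24.2 TPM with the antibodies alone and 435 and 418 TPM in medium (log2 fold change 5.096 ± 0.204 (SE), adjusted p = 2.38e-07). The 3 libraries with TRAIL lay above both other groups for these genes. Slc28a2b, of a family of nucleoside transporters, had 143, 142 and 141 TPM with TRAIL, against 0.791, 2.38 and 1.13 TPM with the antibodies alone and 353 and 313 TPM in medium (log2 fold change 5.93 ± 0.205 (SE), adjusted p = 1.27e-07). Marco, a scavenger receptor of macrophages and one of the macrophage markers, had 66.6, 73.2 and 84.5 TPM with TRAIL, against 0.157, 1.03 and 0.7805 TPM with the antibodies alone and 171 and 193 TPM in medium, the highest level being in medium. Rapgef4, an exchange factor for Rap proteins that binds cyclic AMP, Fcmr, the receptor for the constant part of IgM, and Art2b, an ADP-ribosyltransferase of the T cell surface, had log2 fold changes of 4.91, 4.82 and 4.79. The non-coding genes Gm26740 (4.83) and BC106179 (4.67) and the pseudogene Hmgb1-ps8 (4.73) completed the 12 highest. Hmgb1-ps8 lies within the span of Gm26740 on chromosome 10, so these 2 values may share reads, and BC106179 overlaps other genes on the other strand.

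The lowest change was that of Il21, the cytokine of helper T cells for B cells, at chr3:37222759-37232636. Il21 had 1.001, 0.831 and 0.863 TPM with TRAIL, against 444, 427 and 428 TPM with the antibodies alone and 0.239 and 0.113 TPM in medium (log2 fold change -7.84 ± 0.077 (SE), adjusted p = 1.84e-09). The groups lay far apart. Gm12534, an antisense gene that overlaps Il21, fell with it (-5.89), and no source used here gives the strand setting of the counting, so their reads cannot be told apart. Crabp2, which carries retinoic acid in the cell, had 1.13, 1.07 and 0.905 TPM with TRAIL, against 121, 102 and 104 TPM with the antibodies alone (log2 fold change -5.75 ± 0.098 (SE), adjusted p = 1.84e-08). Gzmb, the granzyme of killer cells, at chr14:56258838-56262260, had 63.9, 66.7 and 55.2 TPM with TRAIL, against 1571, 1614 and 1517 TPM with the antibodies alone and 12.5 and 14.1 TPM in medium (log2 fold change -4.64 ± 0.082 (SE), adjusted p = 1.84e-08). The others among the 12 lowest were Cth (-5.503), Egln3 (-5.17), Ak4 (-4.54), Akr1c18 (-4.54), Lif (-4.46), Il13 (-4.23), Tg (-4.12) and Ccr8 (-4.02). The 12 highest and 12 lowest were chosen among called genes without overlap between the groups, so their separation was set by the choice.

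**Figure D3:**
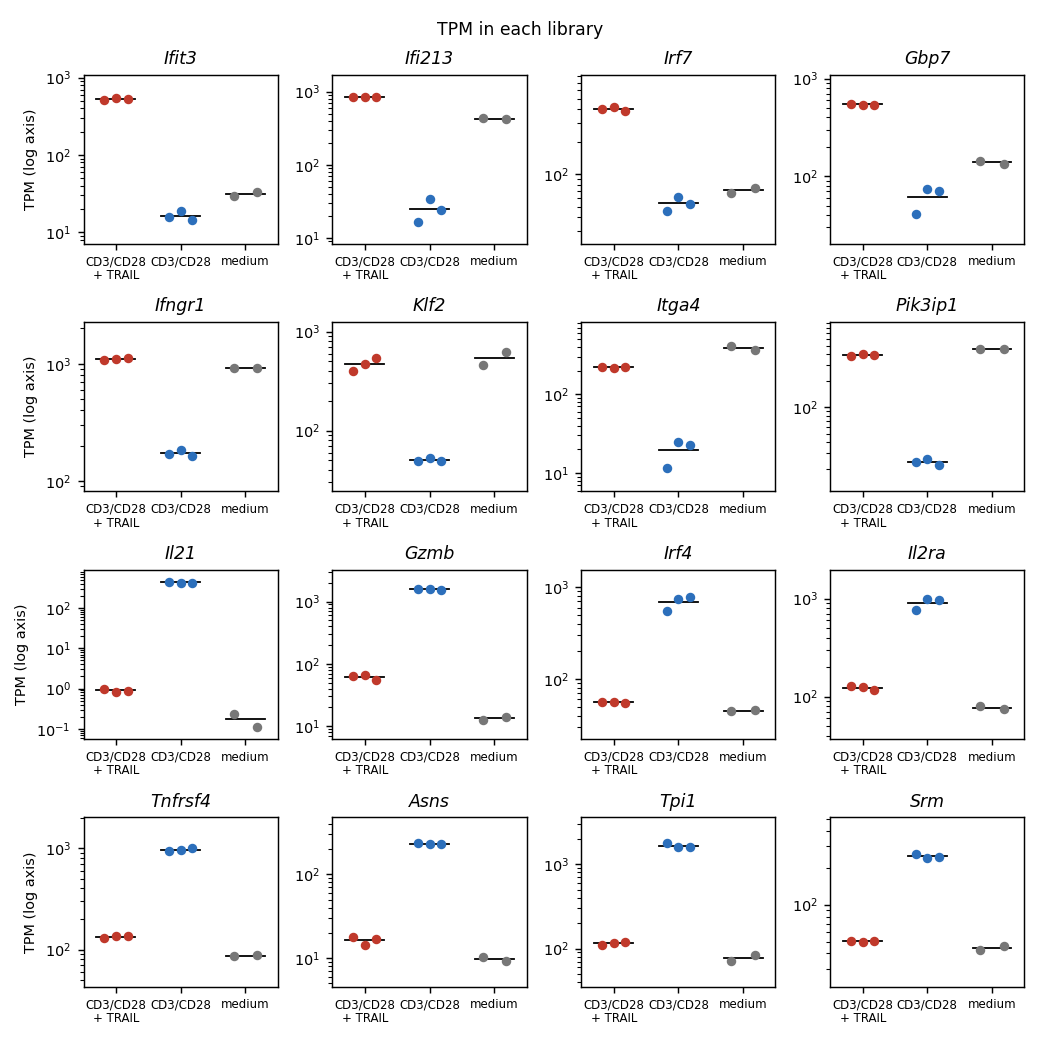
TPM (vertical axes, log scale) of 16 genes in each library; points are libraries and bars are group means. Ifit3 lies at 519 to 549 TPM with TRAIL, above both other groups. Klf2 and Pik3ip1 lie above the antibodies alone, and Il21, Gzmb, Asns and Tpi1 lie below them.

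Interferon-stimulated genes were higher with TRAIL. Of 34 tested antiviral effectors, 33 rose and 0 fell (33 and 0 without replicate 1), 27 of them by at least 1 on the log2 scale, with a median log2 fold change of 1.996. All 17 interferon-inducible GTPases rose, 15 by at least 1, with a median of 1.84. Not all 17 were measured apart, for some share 50-base stretches of sequence with other genes. The share was 99.2% in Gvin1, 86.6% in Tgtp2, 81.2% in Tgtp1 and 70.7% in Gbp6, and at most 18.1% in the others. The summed level of the antiviral effectors was 8704 to 9376 TPM with TRAIL, against 2307 to 2735 TPM with the antibodies alone and 3162 to 3221 TPM in medium, and that of the GTPases was 10860 to 10910 TPM with TRAIL, against 3786 to 3840 TPM with the antibodies alone and 3058 to 3234 TPM in medium. Both sums were thus above medium as well as above the antibodies alone; the groups share libraries, and the medium values stand here only side by side. The B cell markers, which rose with them, lay in medium above their level with TRAIL; their part in the result was not tested.

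The promoters of these genes are shown because many hold the core of the interferon-stimulated response element. The letters of this core, GAAA, any 2 bases and GAAA again, searched on both strands from 250 bases before to 50 after the RefSeq start, were found in 4.02% of the 9546 tested genes with a promoter in the table, in 13 of 27 antiviral effectors (48.1%) and in 10 of 11 GTPases (90.9%). They were found in 6.89% of promoters of genes that rose by at least 1 and in 2.65% of those that fell by at least 1. A match is a description of these letters and not a site. The sequences below, from RefSeq on GRCm38.p6, are those of Ifit1bl1 and Ifit3, the 2 largest changes among holders in the antiviral list, of Gbp7, the largest among the GTPases, and of Bst2, shown after its values were seen because it did not pass; capitals mark each match.
Ifit1bl1 promoter, chr19:34601919-34602218, minus strand: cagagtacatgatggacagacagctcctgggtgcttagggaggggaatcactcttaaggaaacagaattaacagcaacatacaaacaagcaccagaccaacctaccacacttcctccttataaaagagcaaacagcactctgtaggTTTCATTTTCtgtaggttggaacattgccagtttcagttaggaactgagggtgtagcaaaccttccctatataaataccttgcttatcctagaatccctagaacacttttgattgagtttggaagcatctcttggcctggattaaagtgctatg
Ifit3 promoter, chr19:34583279-34583578, plus strand: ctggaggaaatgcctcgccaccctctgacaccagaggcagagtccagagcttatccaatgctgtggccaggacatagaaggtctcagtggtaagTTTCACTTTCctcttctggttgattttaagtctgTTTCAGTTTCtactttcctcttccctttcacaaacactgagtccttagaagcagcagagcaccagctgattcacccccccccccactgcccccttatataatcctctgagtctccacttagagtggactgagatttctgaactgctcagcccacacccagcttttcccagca
Gbp7 promoter, chr3:142530086-142530385, plus strand: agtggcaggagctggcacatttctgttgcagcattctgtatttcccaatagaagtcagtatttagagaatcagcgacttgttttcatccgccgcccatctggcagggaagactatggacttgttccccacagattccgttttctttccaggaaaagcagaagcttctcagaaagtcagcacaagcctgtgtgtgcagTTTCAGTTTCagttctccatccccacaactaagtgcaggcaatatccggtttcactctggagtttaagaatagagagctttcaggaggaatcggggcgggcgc
Bst2 promoter, chr8:71537423-71537722, minus strand: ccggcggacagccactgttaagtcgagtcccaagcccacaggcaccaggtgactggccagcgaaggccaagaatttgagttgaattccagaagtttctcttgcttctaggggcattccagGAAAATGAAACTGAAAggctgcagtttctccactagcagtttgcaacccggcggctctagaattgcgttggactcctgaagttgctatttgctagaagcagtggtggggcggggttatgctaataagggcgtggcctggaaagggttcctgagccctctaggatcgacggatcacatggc

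Ifit3, an IFIT protein of the antiviral response, had 519, 549 and 534 TPM with TRAIL, against 15.9, 18.6 and 14.3 TPM with the antibodies alone and 29.7 and 33.4 TPM in medium (log2 fold change 4.96 ± 0.096 (SE), adjusted p = 2.33e-08). It holds 2 matches, and 51.2% of its 50-base stretches recur in other genes, chiefly in Ifit3b, so the split of reads between them is uncertain. Ifit3b had 107, 117 and 115 TPM with TRAIL, against 2.99, 3.93 and 2.58 TPM with the antibodies alone and 6.06 and 6.15 TPM in medium (log2 fold change 4.79 ± 0.12 (SE), adjusted p = 4.06e-08). Both genes are among the 12 highest changes, a choice that required no overlap between the groups with and without TRAIL. Gbp7, a guanylate-binding protein of defence against pathogens inside cells, had 549.5, 541 and 538 TPM with TRAIL, against 41.03, 74.05 and 70.01 TPM with the antibodies alone and 143 and 134 TPM in medium (log2 fold change 3.16 ± 0.196 (SE), adjusted p = 2.34e-06). Its neighbours in the family, Gbp9 and Gbp8, had log2 fold changes of 2.76 and 2.73. Bst2, tetherin, which holds virus particles at the cell surface, holds 2 matches as well, and it was the 1 antiviral effector that did not pass, with 174, 187 and 174 TPM with TRAIL, against 199, 173 and 172 TPM with the antibodies alone and 65.95 and 62.1 TPM in medium (log2 fold change -0.022 ± 0.072 (SE), adjusted p = 0.792). Isg15, a ubiquitin-like protein conjugated to targets under interferon, was looked at after its values were seen: its promoter holds 3 matches, and it had 107, 108 and 97.8 TPM with TRAIL, against 95, 76.1 and 70.5 TPM with the antibodies alone and 12.04 and 12.2 TPM in medium (log2 fold change 0.38 ± 0.11 (SE), adjusted p = 0.0121). Under scaling Isg15 was not called (0.11). Both genes stood well above medium with the antibodies alone.

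Factors that carry the interferon signal rose in the same libraries. Of 12 JAK, STAT and IRF genes, 10 rose and 2 fell, with a median of 1.29. Irf7, which amplifies type I interferon, had 404, 417 and 381 TPM with TRAIL, against 45.6, 61.9 and 53.5 TPM with the antibodies alone and 66.3 and 75.1 TPM in medium (log2 fold change 2.89 ± 0.11 (SE), adjusted p = 1.91e-07). Stat2, a STAT factor of the type I interferon receptor, had a log2 fold change of 2.09. The 2 that fell were Jak2 (-0.38), the kinase of the interferon gamma receptor among others, and Irf8 (-0.25). Of the receptors, Ifngr1, the ligand-binding chain for interferon gamma, had 1067, 1101 and 1129 TPM with TRAIL, against 169, 183 and 164 TPM with the antibodies alone and 916 and 911 TPM in medium (log2 fold change 2.67 ± 0.058 (SE), adjusted p = 2.67e-08), so that the libraries with TRAIL lay above both other groups. The chains for type I interferon, Ifnar1 and Ifnar2, rose by 1.29 and 0.73, and Ifngr2 by 0.49. Ifng, interferon gamma itself, fell: it had 38.7, 48.4 and 56.3 TPM with TRAIL, against 99.2, 70.8 and 65.3 TPM with the antibodies alone and 2.25 and 2.001 TPM in medium (log2 fold change -0.695 ± 0.18 (SE), adjusted p = 0.0077). The type I interferon genes looked for, Ifnb1, Ifna2, Ifna4 and Ifnk, were not among the genes listed under these names, and were not tested. Ifnlr1, of the interferon lambda receptor, was below the level tested.

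Of 12 tested sensors of foreign nucleic acid, 9 rose and 1 fell (9 and 2 without replicate 1, 9 and 3 with the length trend removed). Ifih1, the RNA sensor MDA5, had 61.8, 61.8 and 60.9 TPM with TRAIL, against 6.23, 9.33 and 7.896 TPM with the antibodies alone and 22.8 and 21.5 TPM in medium (log2 fold change 2.84 ± 0.12 (SE), adjusted p = 3.24e-07). Ddx58, the RNA sensor RIG-I, rose by 2.58, and Tlr9, the endosomal receptor for DNA, by 2.65. Cgas, the DNA sensor that makes cyclic GMP-AMP, fell (-0.71). Among 9 brakes on interferon signalling, 5 rose and 2 fell. Over all tested genes 48.1% rose and 28.6% fell, so these shares lie near the background. Pias1 (1.29), Trim24 (0.89) and Usp18 (0.73) led the rises, with 0.88, 0.48 and 0.67 when the length trend was removed. Cish, a suppressor induced by STAT5, had 62.6, 64.8 and 61 TPM with TRAIL, against 270.2, 319 and 298 TPM with the antibodies alone and 28.6 and 30.8 TPM in medium (log2 fold change -2.21 ± 0.073 (SE), adjusted p = 1.08e-07), and Ptpn2, a phosphatase of JAK and STAT proteins, fell (log2 fold change -0.89). Socs1, which blocks JAK kinases, did not pass (-0.23, adjusted p = 0.133).

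Presentation on MHC class I went up in parts. Of 19 genes, 14 rose and 2 fell (15 and 3 without replicate 1), with a median of 0.75. Nlrc5, the transactivator of class I genes, had 283, 295 and 275 TPM with TRAIL, against 67.7, 118 and 119 TPM with the antibodies alone and 175 and 169 TPM in medium (log2 fold change 1.52 ± 0.19 (SE), adjusted p = 1.54e-04). The non-classical heavy chains H2-Q4 and H2-Q7 rose by 1.85 and 1.63, and H2-Q7 shares 26.4% of its 50-base stretches with other genes. Calr (-0.58) and Pdia3 (-0.14), chaperones of the endoplasmic reticulum that also serve other proteins, fell. The proteasome activator subunits Psme1 and Psme2 did not pass, at 0.051 and 0.18, and Psme2 passed without replicate 1.

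Chemokines divided. Of 10 tested, 8 rose and 2 fell, beside 48.1% rising and 28.6% falling among all tested genes. Ccl5, a chemokine for T cells and monocytes, had 108, 104 and 109.6 TPM with TRAIL, against 22.4, 24.9 and 21.6 TPM with the antibodies alone and 94.2 and 100.3 TPM in medium (log2 fold change 2.17 ± 0.069 (SE), adjusted p = 1.01e-07). Ccl2 and Ccl7, chemokines for monocytes, rose by 3.14 and 2.38; Ccl2 had 14.9, 18.8 and 15.3 TPM with TRAIL, below its 31.3 and 38.1 TPM in medium, where the macrophage markers were highest. Ccl4 and Ccl3, which activated T cells release, fell (log2 fold changes -1.91 and -0.89). Ccl4 had 37.6, 35.4 and 34.8 TPM with TRAIL, against 184, 129 and 111 TPM with the antibodies alone, with no overlap.

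**Figure D4:**
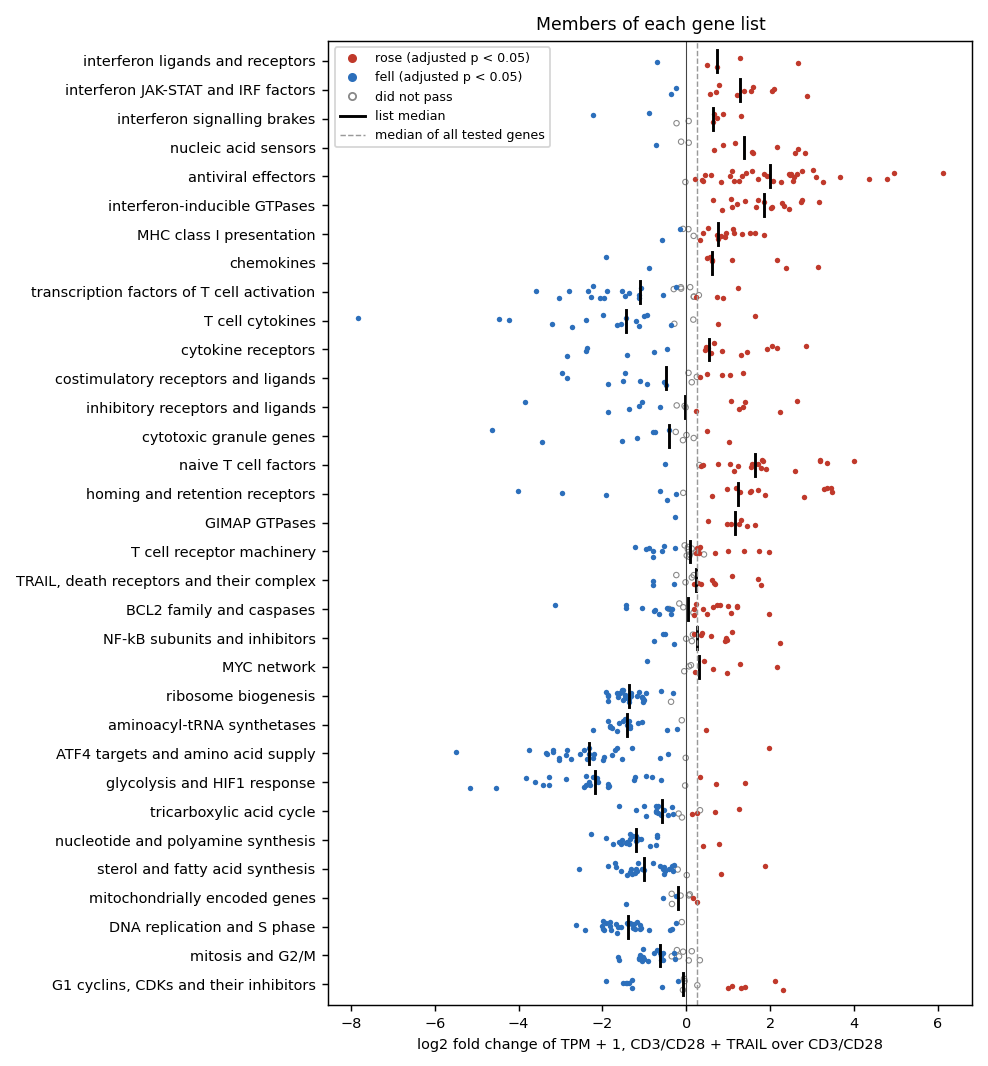
Log2 fold change of TPM + 1 with TRAIL over the antibodies alone (horizontal axis) for the tested members of 33 gene lists; each point is a gene, a bar is the list's median and the dashed line is the median of all tested genes (0.25). Antiviral effectors and GTPases lie to the right with medians of 1.996 and 1.84, ATF4 targets and glycolysis to the left with -2.33 and -2.18.

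Transcription factors of T cell activation were lower with TRAIL. Of 28, 17 fell and 4 rose (19 and 3 without replicate 1, and 19 and 3 with the length trend removed), and 15 fell by at least 1, against 8.76% of all tested genes. Irf4, which scales with the strength of the T cell receptor signal, had 56.5, 56.5 and 55.3 TPM with TRAIL, against 554, 741 and 774 TPM with the antibodies alone and 44.7 and 46.2 TPM in medium (log2 fold change -3.58 ± 0.12 (SE), adjusted p = 1.08e-07). Fosl1, an AP-1 subunit, and Nr4a3, an orphan nuclear receptor of the immediate early response, had log2 fold changes of -3.03 and -2.79. For all 3 genes the libraries with TRAIL lay within a narrow range and below every library without it. Those that rose included Rel (1.24), an NF-kB subunit, Jun (0.89), of AP-1, and Maf (0.72). Ikzf3 did not pass, with 403, 391 and 379 TPM with TRAIL, against 193, 468 and 457 TPM with the antibodies alone: replicate 1 of the antibodies lay far below replicates 2 and 3, and without it Ikzf3 passed downwards with a log2 fold change of -0.24.

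Cytokines fell with them: of 19 tested, 15 fell and 2 rose (15 and 3 without replicate 1), with a median of -1.44. Il13, a cytokine of type 2 helper cells, had 1.002, 1.74 and 1.79 TPM with TRAIL, against 44.8, 49.2 and 42.7 TPM with the antibodies alone (log2 fold change -4.23 ± 0.15 (SE), adjusted p = 1.34e-07). Lif, leukaemia inhibitory factor, had 4.198, 4.12 and 3.83 TPM with TRAIL, against 101, 117 and 112 TPM with the antibodies alone (log2 fold change -4.46 ± 0.089 (SE), adjusted p = 2.33e-08). In medium Il13 had 0.393 and 0.185 TPM and Lif 1.66 and 2.04 TPM, below the libraries with TRAIL. Ltb, lymphotoxin beta, went the other way, with 715, 724 and 749 TPM with TRAIL, against 251, 228 and 219 TPM with the antibodies alone and 639 and 692 TPM in medium (log2 fold change 1.65 ± 0.066 (SE), adjusted p = 2.41e-07), and Csf1, the growth factor of macrophages, rose by 0.77. Tnf did not pass (0.17, adjusted p = 0.235), although it passed upwards without replicate 1.

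Receptors for cytokines moved in both directions. Of 18 tested, 12 rose and 6 fell (12 and 6 without replicate 1, 10 and 6 with the length trend removed), beside 48.1% rising and 28.6% falling among all tested genes. Il2ra, the high-affinity chain for IL-2, had 128, 126 and 117 TPM with TRAIL, against 764, 984 and 969 TPM with the antibodies alone and 79.4 and 73.9 TPM in medium (log2 fold change -2.86 ± 0.101 (SE), adjusted p = 1.40e-07). Il12rb1 and Il12rb2, the chains for IL-12, fell (log2 fold changes -2.37 and -2.39). Il18r1, a chain for IL-18, rose, with 73.5, 72.5 and 72.6 TPM with TRAIL, against 7.77, 10.2 and 9.59 TPM with the antibodies alone and 89.7 and 80.5 TPM in medium (log2 fold change 2.87 ± 0.098 (SE), adjusted p = 1.19e-07). Csf2rb, the common chain for IL-3, IL-5 and GM-CSF, and Tgfbr2, a receptor for TGF-beta, rose by 2.16 and 2.04.

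Costimulatory genes divided. Of 17 costimulatory genes, 9 fell and 5 rose (9 and 5 without replicate 1), where 28.6% of all tested genes fell and 48.1% rose. Tnfrsf4, OX40, had 129.7, 137 and 135 TPM with TRAIL, against 935, 963 and 1001 TPM with the antibodies alone and 86.4 and 87.6 TPM in medium (log2 fold change -2.84 ± 0.052 (SE), adjusted p = 2.00e-08). Tnfrsf8, CD30, and Tnfrsf18, GITR, fell (log2 fold changes -2.96 and -1.87). Tnfrsf1b (1.35) and Tnfrsf1a (0.85), the receptors for TNF, and Tnfrsf25 (1.05) rose. Among 16 inhibitory genes, 7 rose and 6 fell (7 and 7 without replicate 1, 6 and 8 with the length trend removed), with a median of -0.028, beside the same shares over all tested genes. Lag3, a ligand of MHC class II on activated cells, had 30.4, 27.7 and 25.3 TPM with TRAIL, against 406, 416 and 424 TPM with the antibodies alone and 7.37 and 7.68 TPM in medium (log2 fold change -3.86 ± 0.074 (SE), adjusted p = 2.33e-08). Cd274, PD-L1, rose instead, with 274, 291 and 293 TPM with TRAIL, against 91.96, 119.7 and 114 TPM with the antibodies alone and 96.2 and 96 TPM in medium (log2 fold change 1.402 ± 0.096 (SE), adjusted p = 4.06e-06). Cd200 (-1.87) and Tigit (-1.36) fell beside Lag3, while Nt5e (2.65), the ectoenzyme CD73 that makes adenosine, and Cd200r1 (2.24) rose beside Cd274.

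Of 13 tested cytotoxic granule genes, 7 fell and 2 rose (7 and 3 without replicate 1). Gzma, a granzyme, had 19.2, 15.3 and 15.7 TPM with TRAIL, against 233, 166 and 179 TPM with the antibodies alone (log2 fold change -3.44 ± 0.14 (SE), adjusted p = 2.32e-07), and Srgn, serglycin of the granule matrix, had 878, 849 and 893 TPM with TRAIL, against 2961, 2280 and 2374 TPM with the antibodies alone (log2 fold change -1.53 ± 0.097 (SE), adjusted p = 2.60e-06). Gzmk (1.01) and the serpin Serpina3g (0.503, not called under scaling) rose. Gzma is also a marker of CD8 T and NK cells; Cd8a and Cd8b1, markers looked at after their values were seen, did not pass (0.0029 and -0.022), and under scaling both passed downwards (-0.26 and -0.29).

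Factors of the naive and quiescent state were higher with TRAIL. Of 20, 18 rose and 1 fell (19 and 1 without replicate 1), 15 of them by at least 1, with a median of 1.63. Klf2, which keeps T cells quiescent and drives homing receptors, had 404, 471 and 536 TPM with TRAIL, against 49.3, 53 and 48.9 TPM with the antibodies alone and 460.4 and 623 TPM in medium (log2 fold change 3.19 ± 0.13 (SE), adjusted p = 2.91e-07). Pik3ip1, an inhibitor of PI3 kinase, had 386, 401 and 395 TPM with TRAIL, against 23.8, 25.7 and 22.3 TPM with the antibodies alone and 452 and 460.3 TPM in medium (log2 fold change 3.99 ± 0.061 (SE), adjusted p = 1.66e-08). Both lay far above the antibodies alone, without overlap. Zbtb20, a repressor with zinc fingers, rose by 3.37, or by 2.98 without replicate 1. Satb1, the chromatin organiser of developing T cells, was the exception, with 540.2, 548 and 540.4 TPM with TRAIL, against 614, 865 and 866 TPM with the antibodies alone and 576 and 550.0 TPM in medium (log2 fold change -0.51 ± 0.13 (SE), adjusted p = 0.00636). The summed level of the list was 6559 to 6991 TPM with TRAIL, against 2129 to 2814 TPM with the antibodies alone and 7808 to 8243 TPM in medium. B cells and other leukocytes of lymph node also express Klf2, and the B cell markers had the same order of groups; their part in the result was not tested.

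Receptors for homing and retention divided. Of 20, 13 rose and 6 fell (13 and 7 without replicate 1), beside 48.1% rising and 28.6% falling among all tested genes. S1pr1, the receptor for sphingosine 1-phosphate that leads cells out of lymph node, had 325, 339 and 348 TPM with TRAIL, against 27.7, 36.9 and 26.1 TPM with the antibodies alone and 456 and 479.8 TPM in medium (log2 fold change 3.45 ± 0.12 (SE), adjusted p = 1.20e-07). Itga4, an integrin chain of entry into tissue, had 224, 216 and 222 TPM with TRAIL, against 11.8, 24.4 and 23.03 TPM with the antibodies alone and 410.3 and 359 TPM in medium (log2 fold change 3.48 ± 0.24 (SE), adjusted p = 3.78e-06), or 3.16 without replicate 1. Il7r, the survival receptor of naive cells, rose by 3.35. Cd69, which pulls S1PR1 from the surface after activation, had 116, 122 and 141 TPM with TRAIL, against 504, 473 and 462 TPM with the antibodies alone and 52.7 and 57.1 TPM in medium (log2 fold change -1.92 ± 0.082 (SE), adjusted p = 3.23e-07). Ccr8 and Ccr4, chemokine receptors of activated and regulatory T cells, fell: Ccr8 had 6.16, 7.07 and 6.84 TPM with TRAIL, against 125, 116 and 130.1 TPM with the antibodies alone, and Ccr4 had 15.9, 16.4 and 15.9 TPM with TRAIL, against 128, 134 and 136 TPM with the antibodies alone. In each of these genes the 2 groups did not overlap, which for Ccr8 was a condition of its choice among the 12 lowest changes. Of 8 GIMAP GTPases, which support lymphocyte survival, 7 rose, Gimap4 by 1.64, Gimap9 by 1.45 and Gimap8 by 1.29, and Gimap7 fell (-0.27).

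The machinery of the T cell receptor gave no common direction. Of 27 genes, 10 rose and 8 fell (13 and 10 without replicate 1, 10 and 12 with the length trend removed), and the median of 0.084 became -0.19 under scaling. Over all tested genes 48.1% rose and 28.6% fell, and the falling share lies near that background. Cd5, an inhibitory coreceptor whose level follows signal strength, had 97.9, 103 and 97.9 TPM with TRAIL, against 218, 244 and 244 TPM with the antibodies alone and 135 and 131 TPM in medium (log2 fold change -1.23 ± 0.063 (SE), adjusted p = 7.96e-07). Cd6 and Cd2, surface molecules of contact, fell (log2 fold changes -0.96 and -0.896). Rasgrp1 and Prkcq rose by 1.74 and 1.37. Lck, the first kinase of the pathway, did not pass, with 389, 402 and 402 TPM with TRAIL, against 367, 382 and 378 TPM with the antibodies alone, and under scaling it passed downwards.

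The gene for TRAIL and the gene for its receptor changed in opposite directions. Tnfsf10 had 32.9, 33.5 and 30.8 TPM with TRAIL, against 8.15, 9.37 and 8.8 TPM with the antibodies alone and 20.9 and 20 TPM in medium (log2 fold change 1.77 ± 0.075 (SE), adjusted p = 3.03e-07). Tnfrsf10b had 4.804, 4.67 and 4.91 TPM with TRAIL, against 7.69, 10.2 and 9.43 TPM with the antibodies alone and 4.803 and 5.14 TPM in medium (log2 fold change -0.79 ± 0.11 (SE), adjusted p = 2.19e-04). The receptor lay at its level in medium and below every library with the antibodies alone, while the ligand lay above both. Tnfrsf26, a mouse receptor of the family without a death domain, rose by 1.72. Of 16 tested genes for death receptors and their complex, 9 rose and 3 fell (10 and 3 without replicate 1, 9 and 6 with the length trend removed), where 48.1% of all tested genes rose and 28.6% fell. Cyld, a deubiquitinase of RIPK1, rose by 1.101, Casp8 by 0.61 (chosen after its values were seen), and Ripk3 and Mlkl, kinase and pseudokinase of necroptosis, fell (log2 fold changes -0.78 and -0.28). Cflar, the inhibitor c-FLIP, did not pass, with 283, 282 and 278 TPM with TRAIL, against 206, 290.5 and 282 TPM with the antibodies alone.

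Among 28 genes of the BCL2 family and caspases, 13 rose and 11 fell (14 and 12 without replicate 1, 11 and 12 with the length trend removed), with a median of 0.049. Over all tested genes 48.1% rose and 28.6% fell, and the rising share lies near that background. Casp6, an effector caspase, had 25.6, 23.3 and 22.7 TPM with TRAIL, against 254, 197 and 207 TPM with the antibodies alone and 25.8 and 25.9 TPM in medium (log2 fold change -3.14 ± 0.10 (SE), adjusted p = 1.02e-07). Bcl2l1, the survival protein BCL-XL, had 43.3, 45.04 and 42.5 TPM with TRAIL, against 111, 124 and 124 TPM with the antibodies alone (log2 fold change -1.44 ± 0.064 (SE), adjusted p = 4.07e-07), and Cycs, cytochrome c, fell (log2 fold change -1.43). Bmf, a BH3-only killer protein, had 17.4, 17.7 and 18.1 TPM with TRAIL, against 3.501, 4.08 and 3.7 TPM with the antibodies alone and 26.5 and 25.9 TPM in medium (log2 fold change 1.98 ± 0.074 (SE), adjusted p = 1.78e-07), with the medium libraries highest. Birc2, an inhibitor of apoptosis protein, and Casp1, the inflammatory caspase, rose by 1.21 and 1.22. Bbc3, PUMA, did not pass (0.17, adjusted p = 0.105), and passed upwards without replicate 1.

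Of 16 NF-kB subunits, kinases and inhibitors, 9 rose and 4 fell (10 and 4 without replicate 1, 6 and 4 with the length trend removed). Over all tested genes 48.1% rose and 28.6% fell, so these shares lie near the background. Ikbke, a kinase that also phosphorylates IRF3 and IRF7, had 458, 487 and 468 TPM with TRAIL, against 75.04, 117 and 112 TPM with the antibodies alone and 419.8 and 394 TPM in medium (log2 fold change 2.23 ± 0.15 (SE), adjusted p = 3.95e-06). Ikbkb, the kinase of the canonical pathway, rose by 1.09, and Nfkbiz, an inducible nuclear regulator, by 0.97. Nfkb1, the p50 precursor, fell (-0.499), as did the inhibitors Nfkbib (-0.77) and Nfkbid (-0.56). Nfkbia, the inhibitor that NF-kB itself induces, did not pass (0.13, adjusted p = 0.114), and passed upwards without replicate 1.

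Genes of growth and metabolism were lower with TRAIL. Myc, which drives this programme in activated T cells, was among the activation factors that fell, with 122, 139.9 and 135 TPM with TRAIL, against 578, 659 and 620.1 TPM with the antibodies alone and 117 and 139 TPM in medium (log2 fold change -2.21 ± 0.088 (SE), adjusted p = 2.34e-07; looked at after its values were seen). Of 10 tested partners and rivals of MYC, 6 rose and 1 fell (6 and 1 without replicate 1, 4 and 1 with the length trend removed), beside 48.1% rising and 28.6% falling among all tested genes. Mxd4, a repressor that competes with MYC for MAX, had 60.4, 63.1 and 59.98 TPM with TRAIL, against 11.5, 13.2 and 13.7 TPM with the antibodies alone and 93.2 and 95.96 TPM in medium (log2 fold change 2.17 ± 0.075 (SE), adjusted p = 1.29e-07). Mlxip, a glucose-responsive partner of MLX, rose by 1.27, and Mycn fell (-0.93). Of 30 ribosome biogenesis genes, 29 fell and 0 rose (30 and 0 without replicate 1), with a median of -1.37. Rrp12, of ribosome export, had 15.4, 15.9 and 15.6 TPM with TRAIL, against 55.1, 66.5 and 65.6 TPM with the antibodies alone (log2 fold change -1.92 ± 0.083 (SE), adjusted p = 3.28e-07). Gar1 and Nhp2, proteins of box H/ACA RNA particles, fell (log2 fold changes -1.88 and -1.87). Polr1a, the large subunit of RNA polymerase I, did not pass, with 58.4, 57.8 and 56.6 TPM with TRAIL, against 48.05, 95.1 and 89.9 TPM with the antibodies alone, and passed downwards without replicate 1.

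Supply of amino acids gave the lowest list median. Of 29 tested ATF4 targets and amino acid genes, 27 fell and 1 rose (27 and 1 without replicate 1), 25 falling by at least 1, with a median of -2.33, against 28.6% falling among all tested genes. Cth, which makes cysteine from cystathionine, had 1.08, 1.05 and 0.655 TPM with TRAIL, against 97.5, 80.3 and 81.4 TPM with the antibodies alone and 0.901 and 0.496 TPM in medium (log2 fold change -5.503 ± 0.14 (SE), adjusted p = 4.72e-08). Asns, asparagine synthetase, had 18.1, 14.4 and 16.9 TPM with TRAIL, against 239, 231 and 228 TPM with the antibodies alone and 10.4 and 9.15 TPM in medium (log2 fold change -3.75 ± 0.091 (SE), adjusted p = 4.02e-08). Slc7a3, a transporter of cationic amino acids, fell (log2 fold change -3.34). With TRAIL these genes lay close to medium and far below the antibodies alone. Slc7a11, the cystine transporter and itself an ATF4 target, was the exception, with 26.1, 27.3 and 29.7 TPM with TRAIL, against 4.603, 7.7 and 6.82 TPM with the antibodies alone and 35.1 and 35.7 TPM in medium (log2 fold change 1.98 ± 0.15 (SE), adjusted p = 7.98e-06). Slc38a2 did not pass (-0.014). The letters TTGCATCA of the C/EBP-ATF response element, searched in the same promoters, were found in 0.765% of tested genes, in 0.518% of those that rose and 2.07% of those that fell by at least 1, in 5 of 24 members of this list (20.8%) and in 4 of 12 aminoacyl-tRNA synthetases (33.3%). The 2 promoters below are those of the holder with the largest change, Chac1, which degrades glutathione and had 2.53, 3.25 and 1.82 TPM with TRAIL, against 33.9, 30.02 and 28.6 TPM with the antibodies alone (log2 fold change -3.19 ± 0.15 (SE), adjusted p = 5.55e-07), and of Slc7a11, with 2 matches, shown after its values were seen because it rose. They are from RefSeq on GRCm38.p6, and capitals mark the matches.
Chac1 promoter, chr2:119350992-119351291, plus strand: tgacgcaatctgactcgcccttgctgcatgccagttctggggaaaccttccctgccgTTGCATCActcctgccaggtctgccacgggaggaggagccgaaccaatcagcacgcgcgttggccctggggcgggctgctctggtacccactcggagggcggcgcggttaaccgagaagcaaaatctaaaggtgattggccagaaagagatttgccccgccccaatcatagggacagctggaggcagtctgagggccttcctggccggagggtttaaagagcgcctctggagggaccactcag
Slc7a11 promoter, chr3:50443564-50443863, minus strand: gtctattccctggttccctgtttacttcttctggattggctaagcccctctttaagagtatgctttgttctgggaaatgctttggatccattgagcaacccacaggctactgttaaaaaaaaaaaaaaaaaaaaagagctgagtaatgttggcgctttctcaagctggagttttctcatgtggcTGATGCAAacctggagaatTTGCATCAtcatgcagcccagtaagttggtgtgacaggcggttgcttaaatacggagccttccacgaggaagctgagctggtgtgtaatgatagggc

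Of 19 tested aminoacyl-tRNA synthetases, which charge transfer RNA, 17 fell and 1 rose (18 and 1 without replicate 1), with a median of -1.41. Gars, for glycine, had 101, 94.5 and 95.9 TPM with TRAIL, against 446, 470.4 and 461 TPM with the antibodies alone (log2 fold change -2.23 ± 0.052 (SE), adjusted p = 3.78e-08), and Lars and Nars, for leucine and asparagine, fell (log2 fold changes -1.86 and -1.83). Wars, for tryptophan, which interferon gamma is known to induce, rose: it had 271, 273 and 261 TPM with TRAIL, against 178, 202 and 201 TPM with the antibodies alone and 63.2 and 65.9 TPM in medium (log2 fold change 0.47 ± 0.065 (SE), adjusted p = 2.44e-04). Its libraries with TRAIL lay above both other groups.

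Of 28 tested glycolysis and HIF1 genes, 24 fell and 3 rose (25 and 3 without replicate 1, 25 and 2 with the length trend removed), with a median of -2.18. The summed level of the list was 4922 to 4975 TPM with TRAIL, against 22450 to 23070 TPM with the antibodies alone and 4217 to 4380 TPM in medium. Tpi1, triose phosphate isomerase, had 111, 117 and 121 TPM with TRAIL, against 1793, 1586 and 1590 TPM with the antibodies alone and 71.02 and 83.7 TPM in medium (log2 fold change -3.81 ± 0.082 (SE), adjusted p = 2.67e-08). Egln3, a HIF prolyl hydroxylase induced by HIF1, had 3.76, 4.36 and 4.07 TPM with TRAIL, against 174, 187 and 182 TPM with the antibodies alone and 3.74 and 3.92 TPM in medium (log2 fold change -5.17 ± 0.072 (SE), adjusted p = 1.51e-08), and Ak4, a mitochondrial adenylate kinase, fell (log2 fold change -4.54). Pdk1, the kinase that keeps pyruvate out of mitochondria and is commonly a HIF1 target, had 332, 344 and 344 TPM with TRAIL, against 116, 139 and 133 TPM with the antibodies alone and 447 and 413 TPM in medium (log2 fold change 1.39 ± 0.076 (SE), adjusted p = 1.20e-06). Pfkfb4 (0.71) and Pfkfb3 (0.32), which set fructose 2,6-bisphosphate, also rose, and with the length trend removed Pfkfb3 was not called. Pdk1 and Pfkfb4 were highest in medium and lowest with the antibodies alone, the opposite order to Tpi1.

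The tricarboxylic acid cycle was lower by less: 15 of 22 genes fell and 4 rose (16 and 5 without replicate 1, 16 and 2 with the length trend removed), with a median of -0.57. Suclg1, a subunit of succinate CoA ligase, had 76.1, 80.9 and 80.1 TPM with TRAIL, against 268, 227 and 235 TPM with the antibodies alone (log2 fold change -1.61 ± 0.072 (SE), adjusted p = 4.10e-07), and Idh3a and Fh1 fell (log2 fold changes -1.21 and -1.01). Idh1 (1.25) and Idh2 (0.69), isocitrate dehydrogenases that use NADP, rose, as did Sdha (0.25) and Idh3b (0.14, chosen after its values were seen, and -0.13 under scaling). Of 10 tested mitochondrially encoded genes, 3 fell and 2 rose (3 and 3 without replicate 1, 2 and 0 with the length trend removed). Over all tested genes 28.6% fell and 48.1% rose, and the falling share lies near that background. Those that fell were mt-Nd6 (-1.44), mt-Nd1 (-0.56) and mt-Nd2 (-0.25), subunits of complex I, and those that rose were mt-Nd5 (0.26) and mt-Co1 (0.16). The values of Sdha, mt-Nd5 and mt-Co1 turned negative under scaling, mt-Nd6 overlaps mt-Nd5 on the other strand, and mt-Co1 shares sequence with nuclear copies.

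Of 25 tested genes of nucleotide and polyamine synthesis, 23 fell and 2 rose (23 and 2 without replicate 1), with a median of -1.20. Srm, spermidine synthase, had 51, 50.04 and 50.8 TPM with TRAIL, against 257, 242 and 245 TPM with the antibodies alone and 42.98 and 46.4 TPM in medium (log2 fold change -2.27 ± 0.055 (SE), adjusted p = 4.06e-08). Ctps and Umps, of pyrimidine synthesis, fell (log2 fold changes -1.91 and -1.76). Dck (0.78), which salvages deoxynucleosides, and Sat1 (0.41, not called under scaling), which breaks polyamines down, rose. Of 29 genes of sterol and fatty acid synthesis, 25 fell and 2 rose (26 and 2 without replicate 1), with a median of -1.001. The stearoyl-CoA desaturases parted. Scd2 had 20.5, 21.8 and 19.2 TPM with TRAIL, against 112, 129.6 and 135 TPM with the antibodies alone and 13.5 and 12.7 TPM in medium (log2 fold change -2.55 ± 0.088 (SE), adjusted p = 1.22e-07), whereas Scd1 had 102, 95.7 and 97.9 TPM with TRAIL, against 21.7, 28.2 and 28.4 TPM with the antibodies alone and 104 and 102 TPM in medium (log2 fold change 1.89 ± 0.102 (SE), adjusted p = 1.10e-06). Elovl6, the elongase before them, rose by 0.82, while Cyp51 (-1.86) of cholesterol synthesis fell. The letters CACGTG, the E-box that MYC and MAX bind, were found in 11.9% of the promoters of tested genes, in 10.1% of those of genes that rose by at least 1 and in 15.2% of those that fell by at least 1. Among the lists of growth, metabolism, replication and mitosis the share ran between 4.17% in the ATF4 list (1 of 24) and 40% in the MYC network (4 of 10).

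Genes of DNA replication fell: 29 of 30 passed downwards and 0 upwards (29 and 0 without replicate 1), with a median of -1.398. Orc1, which marks replication origins, had 4.12, 3.77 and 3.95 TPM with TRAIL, against 28.6, 31.02 and 30.04 TPM with the antibodies alone and 1.77 and 2.29 TPM in medium (log2 fold change -2.64 ± 0.091 (SE), adjusted p = 1.25e-07), and Chek1, the checkpoint kinase, and Cdc6, which loads the helicase, fell (log2 fold changes -2.41 and -2.02). Of 26 mitosis genes, 19 fell and 0 rose (24 and 0 without replicate 1, 23 and 0 with the length trend removed), with a median of -0.62. Cdk1, the mitotic kinase, had 8.02, 8.84 and 7.67 TPM with TRAIL, against 30.3, 25.7 and 25.5 TPM with the antibodies alone and 4.19 and 5.49 TPM in medium (log2 fold change -1.61 ± 0.11 (SE), adjusted p = 4.87e-06), and Mybl2 fell (log2 fold change -1.62). Mki67, the proliferation antigen Ki-67, had 48, 44.1 and 42.9 TPM with TRAIL, against 21.4, 58.7 and 54.4 TPM with the antibodies alone and 31.3 and 30.8 TPM in medium and did not pass (adjusted p = 0.73); without replicate 1 of the antibodies, where it was lowest, it passed downwards with -0.32.

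Genes of the G1 phase divided. Of 19 tested, 9 fell and 6 rose (9 and 7 without replicate 1, 11 and 6 with the length trend removed). Among all tested genes 28.6% fell and 48.1% rose. E2f1, the activator of S phase genes, had 7.32, 6.96 and 6.19 TPM with TRAIL, against 27.4, 28.7 and 29.1 TPM with the antibodies alone and 4.34 and 4.43 TPM in medium (log2 fold change -1.91 ± 0.081 (SE), adjusted p = 3.07e-07), and the cyclins Ccne2 and Ccnd2 fell (log2 fold changes -1.51 and -1.44). Those that rose included Cdkn1b, Ccng2 and Rbl2. Cdkn1b, the inhibitor p27, had 296, 302 and 301 TPM with TRAIL, against 65.2, 71.97 and 68.1 TPM with the antibodies alone and 403 and 373 TPM in medium (log2 fold change 2.11 ± 0.058 (SE), adjusted p = 6.13e-08), Ccng2, a cyclin of resting cells, rose by 2.32, and Rbl2, the pocket protein p130, by 1.41. In Cdkn1b the 3 libraries with TRAIL lay well clear of the 3 without.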

How the data were processed

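Libraries were made from total RNA of cultured CD4 T cells with an mRNA kit and sequenced on lane 3. The expression values are TPM, per the file headers of the authors' deposited table. The submitters' processing notes name the build GRCm38.p6, the trimmer Trimmomatic 0.36, the aligner HISAT2 2.1.0, and StringTie 2.1.4, SAMtools 1.2 and DESeq2 1.26.0; strand of counting and filters are not given in the sources used here. Deposited fold changes and z-scores were not used. TPM times gene length gave whole multiples of 1 read in each library. Groups follow the sample titles. limma 3.58.1 in R 4.3.3 was fitted to log2(TPM + 1) of the 8 libraries, 1 coefficient per group, with a trend of variance on mean; p-values are two-sided, Benjamini-Hochberg adjusted over 14035 genes, and the threshold was 0.05. A fold change on this scale understates the change of low genes. Gene names, types and coordinates come from GENCODE. Genes named are the 12 highest and 12 lowest changes among called genes without overlap of the libraries and at 20 TPM or more in the higher group. Per list, they are the 3 largest in the direction most called members took, up to 3 called the other way and up to 2 that did not pass. Others are marked. Some genes the rule names are not reported here. The members and lists were chosen with earlier results of these data known. Shared sequence was counted as 50-base stretches of annotated transcripts that recur in other genes. The calls were also run on simulated reads. That simulation had few changed genes, no trend on gene length and no outlying library, unlike these data, so it does not measure their error rate. Alternatives were another scaling, other pseudocounts and filters, the 6 libraries alone, a replicate block, no variance trend, each library left out, and, chosen after seeing the data, a fit with the lowess trend on gene length removed.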

Additional observations from a re-analysis of the deposited data

How the results depend on the processing

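Of 190 named genes, 164 kept their call under every alternative tried. For a called gene this means the same direction and side of the threshold. For a gene not called it means staying uncalled, whatever its direction. Over all genes, leaving out 1 library in turn gave 6279 to 6902 higher and 3729 to 4439 lower, and both extremes at the high end were without replicate 1 of the antibodies. Under median-of-ratios scaling the receptor machinery had 5 genes higher, the mitochondrially encoded genes 5 lower, the CD4 T cell markers 1 higher and the dendritic cell markers 2 higher. With the length trend removed, chosen after seeing the data, CD4 T cell markers had 5 higher and dendritic cell markers 2. With a mean of at least 5 TPM, dendritic cell markers had 2 higher and stromal markers 1, for fewer genes were tested. Leaving out a library in turn gave CD4 T cell markers 3 to 6 and dendritic cell markers 2 to 4 higher. Under scaling Cd8a had -0.26, Idh3b -0.13, Lck -0.19, Sdha -0.021, mt-Co1 -0.11 and mt-Nd5 -0.0076 on the log2 scale. With the length trend removed Cd8a had -0.35, Mki67 -0.71 and Pfkfb3 -0.020. Without replicate 1 of the antibodies Ikzf3 had -0.24 and Mki67 -0.32, and without replicate 2 they had 0.39 and 0.38. The causes were not tested.

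The main fit did not pair same-numbered libraries, and no label used here gives a pairing. Deviations of same-numbered libraries from the group means correlated at -0.065, 0.009 and -0.077. Libraries with different numbers gave -0.046 to 0.080. With 3 libraries per group, and replicate 1 of the antibodies apart from the others, these values cannot decide whether libraries were paired. With a replicate block 6537 genes were higher and 3894 lower. Low genes are limited by depth, at 20.4 to 35.6 reads per TPM for a gene of median length.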

Other observations

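Of 179 tested variable gene segments of immunoglobulins, which B cells express, 175 rose and 0 fell, with a median log2 fold change of 1.92, and the B cell markers rose beside them. Of 95 variable segments of the T cell receptor, 30 rose and 14 fell, with a median of 0.0047. Long intergenic RNAs rose in 68.05% and fell in 13.5% of 266 genes, against 47.9% and 30.9% of 11289 protein-coding genes. Processed pseudogenes, which share sequence with their parent genes, rose in 17.5% and fell in 45.4% of 725. No class was tested against another, and the part of gene length and of reads shared with parent genes in these counts was not tested.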
